A study of Mus musculus with 6 samples.

Results

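The genes described here encode receptors, adaptors and intracellular proteins that are best known from leukocytes, measured in a cultured lung tumour line. They form a list of 10 symbols, selected on the measured differences of Cd300lb, which read lower, and Fcgr3, which read higher, after knockdown of Pik3ca, so the differences of these genes between the groups are given as a description, with no test. Of the 10 symbols, 9 had probe sets whose platform annotation gave that symbol alone, 20 probe sets among the 45101 on the array, and the remaining listed gene is not analysed here. The 9 stand among 18193 genes tested.

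All samples were 344SQ cells, a murine lung cancer line, grown in RPMI medium with serum. The 3 control samples carried a control short hairpin RNA (shRNA) and the 3 PIK3CA shRNA samples a hairpin targeting Pik3ca, the gene of the catalytic subunit p110-alpha of phosphoinositide 3-kinase (PI3K). The hairpin vectors were delivered by lipid transfection. The number of hairpin sequences, any selection of transfected cells and the time after transfection are not given in the sources used here. The study asked how gene expression differs when Pik3ca is knocked down. The labels do not state whether replicates were separate cultures, and p-values therefore reflect the spread of these arrays alone, which may be technical.

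Many receptors of myeloid and lymphoid cells have short tails and signal through small adaptors that carry an immunoreceptor tyrosine-based activation motif (ITAM). When the receptor is engaged, kinases of the Src family phosphorylate the motif, SYK-family kinases dock on it, and phospholipase C-gamma and PI3K are activated downstream. Inhibitory relatives carry an inhibitory motif (ITIM) instead, which recruits phosphatases such as SHIP-1 and SHP-1 that oppose the kinases and PI3K.

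Values are array intensities on a linear scale, scaled to a common median. Differences are the PIK3CA shRNA mean less the control mean of log2(intensity + 16), with the standard error (SE) of the limma fit, and the added 16, the pseudocount, makes differences of dim genes smaller. Each gene is represented by its brightest probe set. Probe sets differ in how strongly they bind their transcript, so intensities of different genes are not compared as transcript levels. Arrays had medians between 134.1 and 134.7, and their number limits the precision. In the limma test with Benjamini-Hochberg adjustment over all genes, 2093 of 18193 genes (11.5%) passed an adjusted p of 0.05, 5.88% higher and 5.62% lower. Groups did not overlap in 33.1% of all genes. The target, Pik3ca, fell from 2380 ± 64.5 to 1235 ± 14.5 (SD, n = 3 each; limma adjusted p = 0.000762).

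The labelled cell type was checked against 16 epithelial marker genes. The keratin genes Krt18 and Krt8 read 13910 ± 733 and 11903 ± 320.0 (SD, n = 3) in control cells and did not pass the test between the groups. The E-cadherin gene Cdh1 (11344 ± 238) and the forkhead gene Foxa2 (3228 ± 85.0), named after their values were seen, were also bright there. Of the 16 markers, 6 lay below the median intensity of all genes, namely the claudin genes Cldn3 (18.8), Cldn4 (82.2) and Cldn7 (156), the splicing factor gene Esrp1 (4.53), and the lung lineage genes Nkx2-1 (116) and Sftpc (94.2), all as control means. Of the list, 1 of 16 was called (6.25%, against 11.5% of all genes): Ocln, a tight junction gene, rose (0.99, SE 0.09, limma adjusted p = 0.00346). No marker fell by the adjusted limma p, and 2 were lower at an unadjusted p of 0.05. These were Krt7 (-0.22, SE 0.05, limma adjusted p = 0.0537) and Epcam (-0.33, SE 0.13, limma adjusted p = 0.167), both named after their values were seen.

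The 250 bases before the annotated start of the genes with the largest differences, and of the Fcgr3 neighbour Fcgr2b, are shown from RefSeq, build GRCm38.p6, to give the sequence context of genes that read in different directions. Capitals mark GAGGAA on either strand (TTCCTC on the printed strand), a sequence recognised by PU.1, the ETS-family factor of myeloid cells. Its shorter part GGAA also stands in the Cd300lb and Fcgr2b windows and is not marked. All 3 genes lie on the minus strand, and the sequences run 5′ to 3′ towards the gene. The Cd300lb window is chr11:114934372-114934621, the Fcgr2b window chr1:170976072-170976321, and the Fcgr3 window, which belongs to the second of its annotated starts, chr1:171059395-171059644.
Cd300lb: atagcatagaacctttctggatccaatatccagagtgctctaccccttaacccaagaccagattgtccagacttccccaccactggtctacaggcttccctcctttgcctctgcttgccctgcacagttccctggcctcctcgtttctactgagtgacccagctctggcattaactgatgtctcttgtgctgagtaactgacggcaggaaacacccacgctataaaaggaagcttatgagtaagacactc
Fcgr3: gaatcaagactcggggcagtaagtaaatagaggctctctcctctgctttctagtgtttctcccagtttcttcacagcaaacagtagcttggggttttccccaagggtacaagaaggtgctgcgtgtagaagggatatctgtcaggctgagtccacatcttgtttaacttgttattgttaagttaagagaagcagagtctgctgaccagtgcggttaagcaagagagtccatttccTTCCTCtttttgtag
Fcgr2b: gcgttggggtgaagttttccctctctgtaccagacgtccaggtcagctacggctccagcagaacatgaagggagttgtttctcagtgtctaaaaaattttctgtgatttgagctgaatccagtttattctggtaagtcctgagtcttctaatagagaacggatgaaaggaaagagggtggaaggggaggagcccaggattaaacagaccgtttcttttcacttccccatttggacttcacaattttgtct

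The marked letters (GAGGAA or TTCCTC) begin 15 bases before this Fcgr3 start and are absent from the windows printed for Cd300lb and Fcgr2b. RefSeq windows were present for 7 of the 9 genes, 10 windows in all, since some genes have more than 1 annotated start. The letters were in 4 of the 10, both overlapping windows of Fcgr3 and 1 each of Laptm5 and Ptprc, and in 23.3% of all 32851 windows of this length. A match in these letters is a description of the sequence and not evidence of binding.

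Cd300lb encodes CLM-7, an activating receptor of the CD300 family that signals through the adaptor DAP12 (encoded by Tyrobp). Its single probe set read 787, 818 and 828 in the control arrays and 176, 146 and 123 in the PIK3CA shRNA arrays. All 3 control values lay above all 3 PIK3CA shRNA values. The mean went from 811 ± 21.7 to 148 ± 26.5 (SD, n = 3 each), which is 18.3% of control, a difference of -2.35 (SE 0.13). The probe set's source sequence is not among the RefSeq transcripts of the gene table, and no other probe set of Cd300lb was measured to set beside it.

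Fcgr3 encodes the low-affinity activating IgG receptor Fc-gamma-RIII, which needs the common gamma chain encoded by Fcer1g. Its single probe set, built on a RefSeq transcript, read 80.1, 59.1 and 71.4 in control arrays and 233, 224 and 208 in PIK3CA shRNA arrays. The groups did not overlap, and each PIK3CA shRNA value was the higher. The mean rose from 70.2 ± 10.5 to 221 ± 12.4 (SD, n = 3 each), a ratio of 3.16 and a difference of 1.47 (SE 0.11). In both groups it stayed below 250.6, the median over all genes of the mean intensity. Control values of Fcgr3 therefore lay in the dim range where the pseudocount matters, and the difference was 1.65 with a pseudocount of 1 and 1.09 with 64.

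Fcgr2b encodes Fc-gamma-RIIB, the inhibitory IgG receptor, which carries an ITIM and recruits SHIP-1. Its brightest probe set read 651, 636 and 662 in control arrays and 551, 596 and 548 in PIK3CA shRNA arrays. The groups did not overlap, but the step was small, from 649.7 ± 13.4 to 565 ± 27.1 (SD, n = 3 each), a difference of -0.20 (SE 0.06). The other 4 probe sets of Fcgr2b overlapped between the groups and did not share a direction. Among them, 1455332_x_at read -0.56 (SE 0.25), 1451941_a_at read 0.42 (SE 0.25), and 1447622_at and 1435477_s_at stayed below an intensity of 5 on every array. The Fc-gamma receptor genes are related in sequence, and how far their probe sets bind each other's transcripts was not tested.

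The 2 ITAM adaptors of these receptors were dim and variable. Fcer1g, the gamma chain that Fc-gamma-RIII depends on, read 105, 45.4 and 66.3 in control arrays and 72.2, 111 and 20.5 in PIK3CA shRNA arrays. The control range lay inside the PIK3CA shRNA range, with a difference of -0.19 (SE 0.51). Tyrobp, which encodes DAP12, the partner of CLM-7, read 73.1, 98.3 and 121 in control arrays and 55.6, 110.3 and 68.9 in PIK3CA shRNA arrays. Its groups overlapped too, with a difference of -0.29 (SE 0.26). Neither adaptor gene passed the call rule, and the standard error was larger than the difference for Fcer1g and close to it for Tyrobp.

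**Figure D1:**
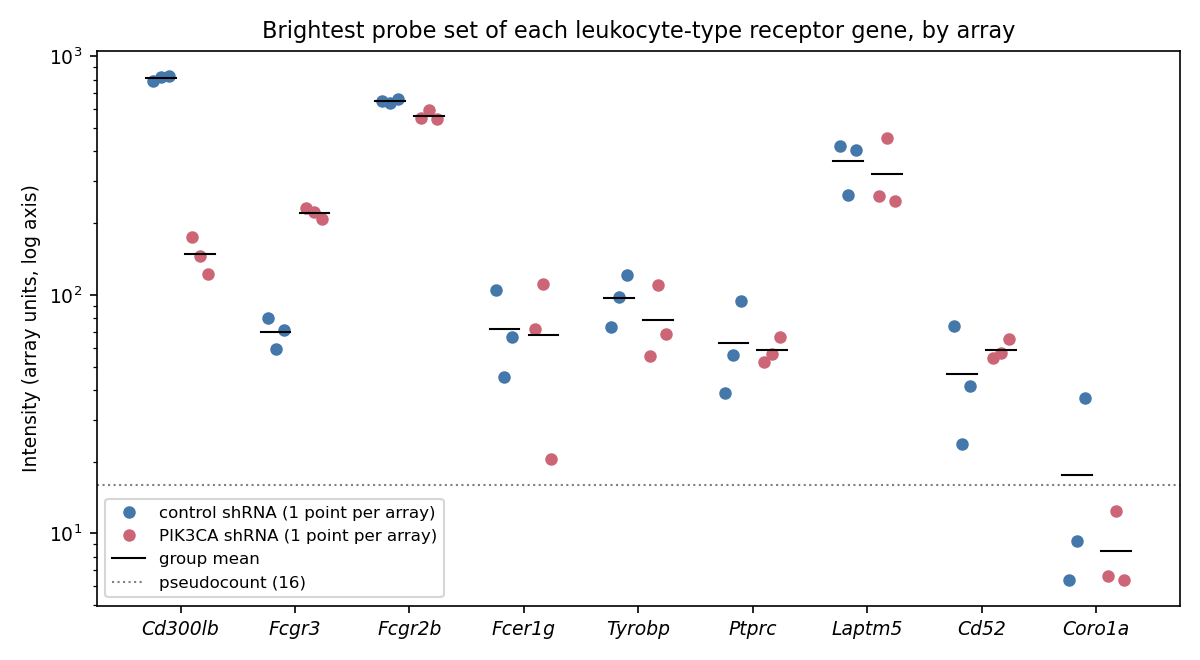
Intensity of the brightest probe set of each of the 9 genes on a log axis, with 1 point per array (blue, control shRNA; red, PIK3CA shRNA), black bars at the group means and a dotted line at the pseudocount of 16. The points of the groups are far apart for Cd300lb and Fcgr3, narrowly separate for Fcgr2b, and overlapping for the other 6 genes.

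Ptprc encodes CD45, the receptor tyrosine phosphatase that activates Src-family kinases and is found on all nucleated blood cells. Its brighter probe set read 38.7, 56.0 and 94.7 in control arrays and 52.3, 56.7 and 66.7 in PIK3CA shRNA arrays, a difference of -0.03 (SE 0.26). The PIK3CA shRNA values all fell inside the control range. The other Ptprc probe set, 1440165_at, read 5.25, 1.82 and 3.38 in control arrays and 9.48, 15.5 and 23.5 in PIK3CA shRNA arrays. There the groups did not overlap, and the difference was 0.70 (SE 0.18), but all but 1 of the 6 values lay below the pseudocount of 16. The brighter Ptprc probe set thus showed no clear direction, and the dimmer one read higher at low intensity.

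Laptm5 encodes a lysosomal membrane protein of blood cells that promotes degradation of antigen receptors. Its brightest probe set read 422, 263 and 407 in control arrays and 259, 453 and 248 in PIK3CA shRNA arrays. The ranges overlapped, with a difference of -0.20 (SE 0.29). A probe set of similar brightness, 1447742_at, read 324 ± 37.9 and 314 ± 40.1 (SD, n = 3 each), a difference of -0.04 (SE 0.13). A dimmer one, 1417721_s_at, read 30.2, 29.2 and 27.5 in control arrays and 59.7, 49.6 and 52.0 in PIK3CA shRNA arrays. Here the groups were clearly apart, with means of 29.0 ± 1.36 and 53.8 ± 5.28 (SD, n = 3 each) and a difference of 0.63 (SE 0.08). The remaining 2 Laptm5 probe sets overlapped between the groups, at 0.19 (SE 0.39) and -0.25 (SE 0.32). The mean over all 5 probe sets gave 0.06, against -0.20 for the brightest.

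Cd52 encodes a small glycosylphosphatidylinositol-anchored glycoprotein of lymphocytes and other leukocytes. Its probe set read 74.1, 23.6 and 41.6 in control arrays and 54.5, 56.9 and 65.5 in PIK3CA shRNA arrays, a difference of 0.34 (SE 0.30). The control arrays spread more widely than the PIK3CA shRNA arrays and contained their whole range. Coro1a encodes coronin-1A, an actin-binding protein of leukocytes. It read 6.41, 9.28 and 37.0 in control arrays and 6.62, 12.4 and 6.35 in PIK3CA shRNA arrays, with a difference of -0.35 (SE 0.34). Only control replicate 3 rose above the pseudocount, and without it the difference was 0.03. The other 2 Coro1a probe sets read -0.43 (SE 0.40) and 0.14 (SE 0.25) and overlapped between the groups.

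Counted together, 2 of the 9 genes passed the call rule, Cd300lb lower and Fcgr3 higher, beside 11.5% of all genes. Since this contrast chose the genes, nothing is read from that share. Groups did not overlap in 3 of the 9 genes, beside 33.1% of all genes. The median difference over the 9 was -0.20, and over all genes it was -0.01. Over probe sets, 3 of 20 passed (4.94% of all 45037 non-control probe sets) and 5 of 20 did not overlap (27.3% of all). The third probe set that passed was the dim Laptm5 one, and the fifth without overlap was the dim Ptprc one. Of the 20 probe sets, 7 had a mean below the pseudocount. Within the PIK3CA shRNA group, the array of replicate 2 was the highest for 5 of the 9 genes and the lowest for 0, while replicate 3 was the lowest for 6. Within the control group, replicate 3 was the highest for 5 and the lowest for 0.

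**Figure D2:**
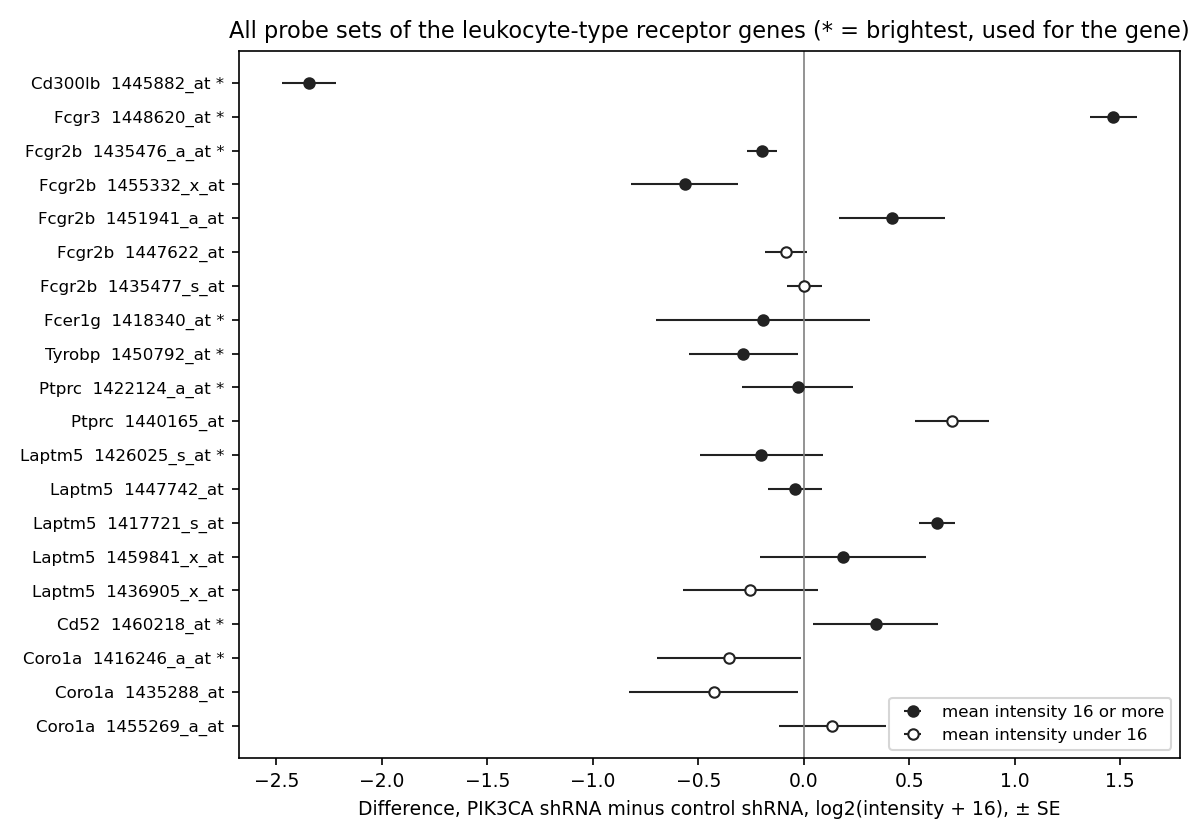
Difference between PIK3CA shRNA and control shRNA on the log2(intensity + 16) scale, with the standard error as a bar, for all 20 probe sets of the 9 genes; open points have a mean intensity under 16 and an asterisk marks the brightest probe set of a gene. Cd300lb (-2.35) and Fcgr3 (1.47) lie far from 0, and the probe sets of Fcgr2b, Ptprc and Laptm5 fall on both sides of 0.

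The loci were examined next, as a description. Cd300lb lies in a cluster of CD300 genes, and the 5 tested genes on each side of it had differences from -0.14 to 0.51, with a median of -0.02. The CD300 neighbours read -0.14 (Cd300a), 0.02 (Cd300ld), -0.02 (Cd300c2) and -0.06 (Cd300lf), none past the limma threshold. The 1 neighbour that passed, Slc9a3r1, which encodes the scaffold protein NHERF1, rose by 0.51 (SE 0.08, limma adjusted p = 0.0161), opposite to Cd300lb. Fcgr3 lies beside Fcgr4 (-0.02) and Fcgr2b, and the 5 tested genes on each side ran from -0.24 to 0.50, with a median of -0.12. Of these, only Cfap126, a cilium-associated gene and the tested gene next to Fcgr3 on the side away from Fcgr4, passed. It rose (0.50, SE 0.08, limma adjusted p = 0.0199), the same direction as Fcgr3.

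**Figure D3:**
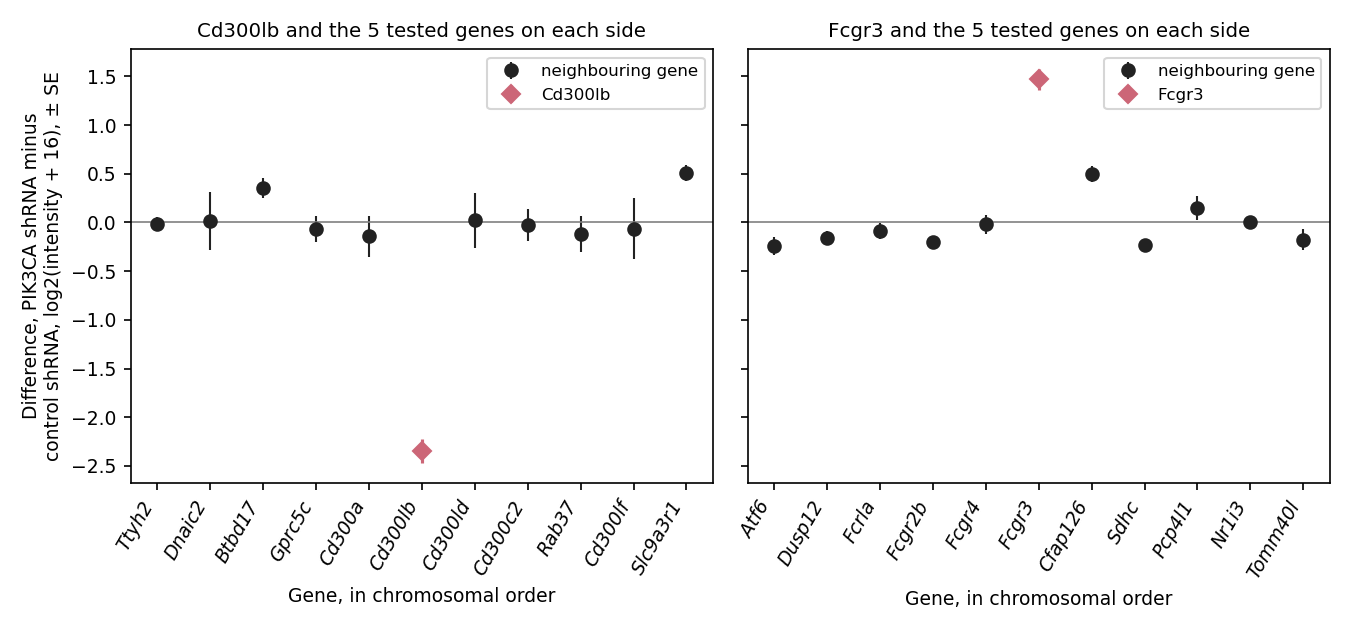
Difference between PIK3CA shRNA and control shRNA on the log2(intensity + 16) scale, with standard errors, for Cd300lb (left) and Fcgr3 (right) as red diamonds and the 5 tested genes on each side as black points, in chromosomal order by rank and not to distance. The neighbours lie between -0.24 and 0.51, and the diamonds at -2.35 and 1.47.

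Likeness was ranked only among genes whose higher group mean was above 250.6, the median over all genes. Genes with a clone identifier as symbol were left out, so dimmer or unnamed genes may have a higher r. Among those ranked, the genes that followed Cd300lb most closely over the 6 arrays, by Pearson's r of the log2 values, were Tmem41b (0.9992), Hspa14 (0.9991), Tmem109 (0.9987), Rps6ka6 (0.9981) and Slc7a2 (0.9979). Their differences ran from -0.30 for Hspa14 to -2.19 for Rps6ka6, a ribosomal S6 kinase gene. For Fcgr3 they were Snhg5 (0.9989), Lgals3bp (0.9985), Slc12a1 (0.9984), Plekhb2 (0.9971) and Capg (0.9971). Among these, Slc12a1, a kidney sodium-potassium-chloride cotransporter gene, had the largest difference, 1.30, and Capg, an actin-capping protein gene, read 0.46. With 2 groups of arrays, any gene that separates the groups with little spread has a high r, so these are descriptions of likeness over 6 arrays.

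Related receptors and relatives of the intracellular proteins were next compared. Of 53 listed genes, 47 were measured, and 4 rose while none fell by the adjusted limma p (8.51% called, against 11.5% of all genes). At an unadjusted p of 0.05, 5 were higher and 2 lower. The list median was -0.06. Pilra and Pilrb1 encode the inhibitory and activating members of a paired receptor, of which the activating one signals through DAP12. Pilra read 123, 124 and 82.0 in control arrays and 322, 298 and 333 in PIK3CA shRNA arrays, and rose by 1.43 (SE 0.16, limma adjusted p = 0.00578). Pilrb1 read 209.8, 204 and 167 in control arrays and 469.9, 467 and 439 in PIK3CA shRNA arrays, and rose by 1.19 (SE 0.10, adjusted p = 0.00267). Neither gene's groups overlapped.

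The other 2 rises were in Fcgrt, which encodes the neonatal Fc receptor that recycles IgG and albumin in many cell types, and in the coronin gene Coro7. Fcgrt went from 290.4 ± 27.7 to 511 ± 58.7 (SD, n = 3 each), a rise of 0.78 (SE 0.11, limma adjusted p = 0.0137). Its call was lost without control replicate 2, control replicate 3 or PIK3CA shRNA replicate 1, with adjusted p between 0.0536 and 0.0571. Coro7, a Golgi-associated coronin, rose by 0.87 (SE 0.12, adjusted p = 0.0103). All 6 of its probe sets were in that direction, and 3 of them passed when probe sets were fitted. The brightest genes of this list, Cd24a (-0.08) and Laptm4a (0.07), did not pass. The other Fc receptor genes Fcgr1 (-0.16) and Fcgr4 (-0.02) and the adaptor genes Hcst (0.22) and Cd247 (-0.09), named for their roles after their values were seen, did not pass either.

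**Figure D4:**
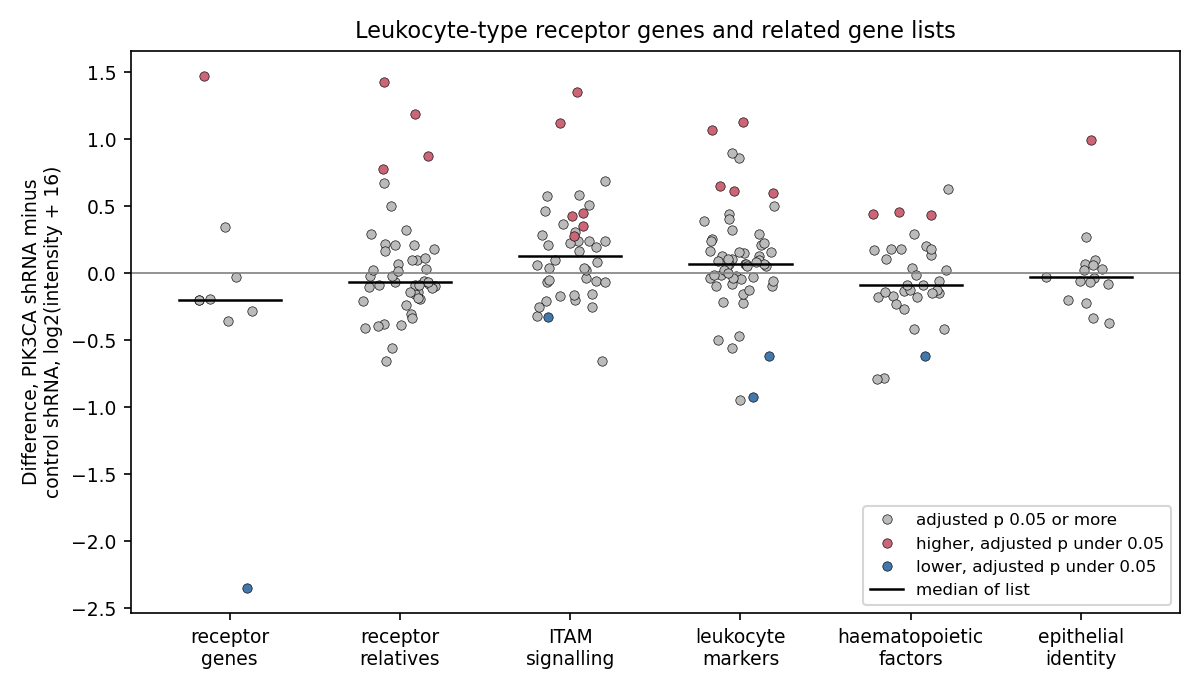
Difference between PIK3CA shRNA and control shRNA on the log2(intensity + 16) scale for each of the 9 leukocyte-type receptor genes (left column) and the genes of 5 related lists, with 1 point per gene at its brightest probe set, black bars at the list medians and colours for the limma call. The medians lie between -0.20 and 0.13, and single genes, with Cd300lb at -2.35 the farthest, lie well outside.

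Downstream of these receptors, 42 of 46 listed genes of ITAM and ITIM signalling were measured, and 6 rose and 1 fell (16.7% called, against 11.5% of all genes). The list median was 0.13. Pik3ap1 encodes BCAP, an adaptor that brings PI3K to activated receptors in B cells and macrophages. It read 147, 157 and 165 in control arrays and 347, 367 and 359.9 in PIK3CA shRNA arrays, and rose by 1.12 (SE 0.06, limma adjusted p = 0.000756). Pag1 encodes a membrane adaptor that holds the kinase CSK near Src-family kinases. It went from 91.2 ± 16.6 to 255 ± 4.88 (SD, n = 3 each) and rose by 1.35 (SE 0.12, adjusted p = 0.00330). Only 1 of its 4 probe sets passed, however, with 1 other reading higher (0.18) and 2 lower (-0.02 and -0.43), and over their mean Pag1 did not pass (adjusted p = 0.0830).

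Smaller changes were found in Prkcd, a protein kinase C gene (0.45, limma adjusted p = 0.00773), the docking protein gene Dok1 (0.35, adjusted p = 0.0216) and Plcg1, which encodes phospholipase C-gamma-1 (0.43, adjusted p = 0.0323). Ptpn11, which encodes the phosphatase SHP-2, fell by 0.33 (adjusted p = 0.0231). Leaving out single arrays ended the call of Ptpn11 in 6 of 6 cases (adjusted p 0.0552 to 0.0802). It ended that of Dok1 in every case but PIK3CA shRNA replicate 2 (0.0536 to 0.0814) and that of Plcg1 in every case but control replicate 3 (0.0865 to 0.103). The seventh gene, Inppl1, a SHIP-2 gene named after its value was seen, was at the edge of the threshold (0.28, adjusted p = 0.0493) and lost its call in 6 of 6 cases (0.0955 to 0.149). Of the brightest genes, Pik3cd, the PI3K catalytic subunit p110-delta found mainly in leukocytes, read 17296 ± 698 and 16544 ± 867 (SD, n = 3 each). These values come from the brightest of its 6 probe sets alone and lie near the array maximum of 17919. The other Pik3cd probe sets are not described here. Yes1 read -0.20, and neither gene passed. The kinase gene Syk (0.24) and the phosphatase genes Inpp5d (0.68, SE 0.37) and Ptpn6 (0.36, adjusted p = 0.0592), named after their values were seen, did not pass.

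Markers of leukocytes that a culture could hold were measured for 58 of 60 listed genes, and 5 rose and 2 fell (12.1% called, against 11.5% of all genes), with a list median of 0.07. Their summed intensity was 8311 to 8904 in control arrays and 9067 to 10075 in PIK3CA shRNA arrays, which do not overlap. That separation changed with the bright genes counted. Without Mrc1 and Cd14, which rose, the sums were 6109 to 6529 and 5616 to 6322, which overlap. Without Cd53, which fell, as well they were 4118 to 4649 and 4695 to 5310. Those do not overlap, and the PIK3CA shRNA sums were again the higher. These sums still held called genes that rose, among them Lcp1 (control mean 289, PIK3CA shRNA mean 449). They also held Mcpt4, which fell (82.7 and 48.3). Sums without these genes were not made, so no rise of the list as a whole is read from the sums. Mrc1, Cd14 and Cd53 were left out after their values were seen. Of the 58, 52 lay below 250.6, the median intensity over all genes, and 11 had a mean below the pseudocount, among them the macrophage genes Mpeg1, Aif1, C1qa and C1qc, the T cell gene Cd3d and the pan-leukocyte genes Hcls1 and Cd48. No gene was listed at exactly 0, and the values carry no detection calls. In bulk RNA, fewer cells of a type and less RNA per cell cannot be told apart. The part of these markers in the values of Cd300lb and Fcgr3 was not tested.

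The marker genes that changed did not share a direction. Cd53, a tetraspanin gene of leukocytes, fell from 1844 ± 168 to 964 ± 45.8 (SD, n = 3 each), a difference of -0.92 (SE 0.09, limma adjusted p = 0.00387), and was among the brightest of the list. Mrc1, the macrophage mannose receptor gene, rose from 1210.0 ± 123 to 1833 ± 6.77 (SD, n = 3 each), a difference of 0.60 (adjusted p = 0.0141). Cd14, a lipopolysaccharide co-receptor gene, rose by 0.65 (adjusted p = 0.0114). S100a8, a calprotectin subunit gene, rose by 1.07 (adjusted p = 0.0198), from 38.8 ± 10.1 to 98.5 ± 18.0 (SD, n = 3 each). S100a9, which encodes the partner subunit and was named after its value was seen, stayed below the pseudocount in both groups (3.50 ± 0.60 and 5.45 ± 3.70, SD, n = 3 each) and did not pass (adjusted p = 0.621). Mcpt4, a mast cell protease gene, fell by 0.62 (adjusted p = 0.0140) at a low intensity. Lcp1, which encodes the leukocyte actin-bundling protein L-plastin and was named after its value was seen, rose by 0.61 (adjusted p = 0.0326), and its other probe set by 1.26.

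Single arrays ended several of these marker calls. Without any 1 of the PIK3CA shRNA arrays, Mrc1 did not pass (limma adjusted p 0.0515 to 0.0577). S100a8 did not pass without replicate 1 or 2 of either group (0.0665 to 0.0720). Mcpt4 did not pass without control replicate 1 or 2 (0.0556 to 0.0571), nor Lcp1 in any case but without control replicate 2 (0.0783 to 0.104). Cd53 and Cd14 passed in all 6 cases. The control arrays of Csf1r, the macrophage growth factor receptor gene, read 241, 326 and 318 and the PIK3CA shRNA arrays 289.6, 323 and 247, so they overlapped, and those of Itgb2, the leukocyte integrin beta-2 gene, overlapped at lower values (both named after their values were seen).

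Of 37 listed transcription factors of blood lineages, 34 were measured, and 3 rose and 1 fell (11.8% called, against 11.5% of all genes), with a list median of -0.09. The rises were in Cebpb (0.44, limma adjusted p = 0.00835), Klf4 (0.46, adjusted p = 0.0112) and Ets1 (0.44, adjusted p = 0.0136), which are also expressed in many epithelial cells, and the fall was in Mitf (-0.62, adjusted p = 0.0350). Ets1 did not pass without PIK3CA shRNA replicate 2 or 3 (0.0509 to 0.0583), and Mitf did not pass without any 1 array (0.0593 to 0.103). Klf4 did not pass as the mean of its probe sets (0.203). Runx1, among the brightest, read 0.10 and did not pass. Spi1, which encodes PU.1 and was named for its role after its value was seen, read 119, 147 and 163 in control arrays and 132, 132 and 122 in PIK3CA shRNA arrays. Its groups overlapped, with a difference of -0.13 (SE 0.12).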

How the data were processed

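RNA from 344SQ cells was hybridised to Affymetrix mouse arrays, 1 per sample, with biotin labelling per the labels' protocols. The authors' deposited values are linear intensities that had been brought to a common distribution, by a method not given in the sources used here. After scaling to equal medians they were converted to log2(intensity + 16), without the 64 control probe sets. Probe sets with 1 annotated symbol (34945) were used, the brightest per gene (18193 genes). The 2 groups were compared two-sided by lmFit and eBayes of limma 3.58.1, run in R 4.3.3, with Benjamini-Hochberg adjustment over all genes. The steps were tested on simulated data. Figures used matplotlib 3.10.9.

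The genes and lists were chosen with earlier results of these data known. Named were the 9 genes, up to 6 called and the 2 brightest members per list, and the 5 genes most like Cd300lb and Fcgr3; exceptions are stated, and 1 called leukocyte marker is not reported here. The main fit did not pair samples by replicate number. Deviations of same-numbered arrays from their group means correlated at 0.05, -0.02 and -0.02 over all genes. Differently numbered arrays were not set beside these, and whether same-numbered arrays shared a batch was not tested. Alternatives covered a replicate block, scaling, pseudocount, a filter on dim genes, the probe set rule, array weights, the variance prior, the threshold and leaving out each array.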

Additional observations from a re-analysis of the deposited data

How the results depend on the processing

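Cd300lb stayed lower (-2.46 to -2.05) and Fcgr3 higher (1.09 to 1.65) over the 17 alternatives run for them, given as a description because these differences chose the genes. The sign of the difference of Fcer1g, Laptm5, Ptprc and Coro1a, none of which had passed, changed under 2, 1, 4 and 1 alternatives. With the replicate block, which spends 2 more degrees of freedom, 413 genes were called in place of 2093, with 1 receptor relative, 2 ITAM signalling genes, 1 leukocyte marker and 0 haematopoietic factors by limma (8 of the factors had an unadjusted p under 0.05). At adjusted p 0.01 these counts were 636, 2, 3, 1 and 1. With an intensity trend and robust prior 3192 genes, 12 ITAM signalling genes and 2 epithelial genes were called. Leaving out dim genes gave 12 and 2 for the latter lists, and averaging the probe sets of a gene, or taking the most variable by interquartile range, gave 4 and 2. A pseudocount of 64 gave 2 epithelial genes. Without single arrays the counts were 945 to 1138 for all genes, 2 to 2 for the 9 genes, 3 to 4 for receptor relatives, 3 to 5 for ITAM signalling, 3 to 5 for leukocyte markers, 2 to 4 for haematopoietic factors and 1 to 1 for epithelial genes. Leaving out an array also leaves fewer arrays, and the causes of these changes in count were not tested. Low intensity limits what can be said of Fcer1g, Tyrobp, Ptprc, Cd52 and Coro1a.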
